A study of Drosophila melanogaster with 15 samples.

Results

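The response to amphetamine (AMPH) was compared between *DAT* mutant flies and wild-type flies (WT) gene by gene, to ask which transcripts answered the drug differently when the dopamine transporter was lost. For each gene the AMPH response of a strain is the mean log2(RPKM + 1) of its AMPH libraries minus that of its vehicle libraries, where RPKM is the reads of a transcript scaled to its length in kilobases and to the size of the library. The difference between the strains is the WT response minus the *DAT* mutant response, so a positive value means a higher log2 response in WT and a negative value a higher one in the *DAT* mutant. One transcript per gene was used, the one with the highest mean RPKM, and of the 11257 genes in the table (18960 transcripts) 10332 had at least 1 RPKM in at least 3 libraries and were tested.

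The 15 libraries were made from single fly heads (the labels give both head and brain), each from 1 male fly in a *w*1118 background that was 7 days old at the start. *DAT* mutant flies carried the loss-of-function allele dDATfmn, back-crossed to the isogenic *w*1118 line that served as WT. Flies fed for 48 h on 10 mM AMPH or on vehicle food of agar and sucrose with no drug. There were 3 *DAT* mutant AMPH, 4 *DAT* mutant vehicle, 4 WT AMPH and 4 WT vehicle libraries. By the rule of the comparison *DAT* mutant vehicle replicate 2 and WT vehicle replicate 1 were set aside and added only as a check, and the values below rest on the other 13 (3, 3, 4 and 3 libraries in the same order).

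The dopamine transporter takes released dopamine back into the neuron and is the protein on which AMPH acts to raise extracellular dopamine. Flies with this loss-of-function allele sleep less and are more active. AMPH can also enter cells and act at sites other than the transporter, such as the vesicular monoamine transporter, and as a foreign compound it is met by detoxification genes. Among the gene groups followed here, activity-regulated genes are induced by neuronal firing, clock genes form the circadian feedback loop, juvenile hormone acts through its receptors on *Kr-h1*, and the takeout family encodes secreted proteins that resemble juvenile hormone binding proteins.

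Depth, read from the spacing of low RPKM values, lay between 11100000 and 77700000 reads a library, and 2 of the 3 *DAT* mutant vehicle libraries used had 11100000 and 11200000 reads. *DAT* mutant vehicle replicate 2 stood apart: its highest Spearman correlation with a library of its group was 0.841, against at least 0.960 for every other library, and it had 562 of the tested genes at 0. The *DAT* gene itself (chr2R:12446062-12452763, minus strand, dm3) had 1.81, 1.55 and 1.23 RPKM in *DAT* mutant AMPH libraries and 2.15, 2.29 and 2.37 RPKM in *DAT* mutant vehicle libraries, against 2.32, 1.93, 1.99 and 3.30 RPKM in WT AMPH libraries and 3.02, 2.18 and 2.99 RPKM in WT vehicle libraries. The strains overlapped on vehicle and did not on AMPH, where the *DAT* mutant libraries were lower, and as the allele carries part of a transposon in an intron and transcript is still counted from this gene, its level does not check the genotype labels. The difference in AMPH response of *DAT* was 0.23 (SE 0.22, adjusted p = 0.999).

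The responses of both strains ran largely in parallel. In limma with Benjamini-Hochberg adjustment at a threshold of 0.1, 1723 genes responded in the *DAT* mutant (16.7% of those tested, 5.80% higher and 10.9% lower on AMPH) and 2490 in WT (24.1%, 9.80% higher and 14.3% lower). Across the 10332 genes, which are not independent replicates, the responses had a Pearson r of 0.74 and a Spearman rho of 0.69, and 1166 of the 1178 genes called in both strains had the same sign. Against this background the responses of 19 genes differed between strains, 0.184% of those tested. The difference was positive for 9 of them (0.0871%) and negative for 10 (0.0968%). At an unadjusted p below 0.05 there were 571 genes (5.53%), 288 with a positive difference (2.79%) and 283 with a negative one (2.74%).

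The count of 19 depended on single libraries. With *DAT* mutant vehicle replicate 2 added it was 1, with all 15 libraries 6 (*GstE1*, *CG6908*, *CG15093*, *CG9150*, *takeout* and *CG11854*), and with all 15 weighted by their fit to their group 45, of which 18 were among the 19. Leaving out 1 library at a time gave 9 genes without *DAT* mutant vehicle replicate 1, 10 without its replicate 3, 12 without its replicate 4, 10 without *DAT* mutant AMPH replicate 3, 30 without WT AMPH replicate 1, and 10 without either WT vehicle replicate 3 or WT vehicle replicate 4. The differences of *GstE1*, *Kr-h1*, *mRpL37*, *Cipc*, *CG5704*, *CG32512* and *CG6908* passed the threshold in each of these 13 fits. The other 12 genes lost the call in at least 1 of them, and each is given below with the fit that weakened it most.

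**Figure D1:**
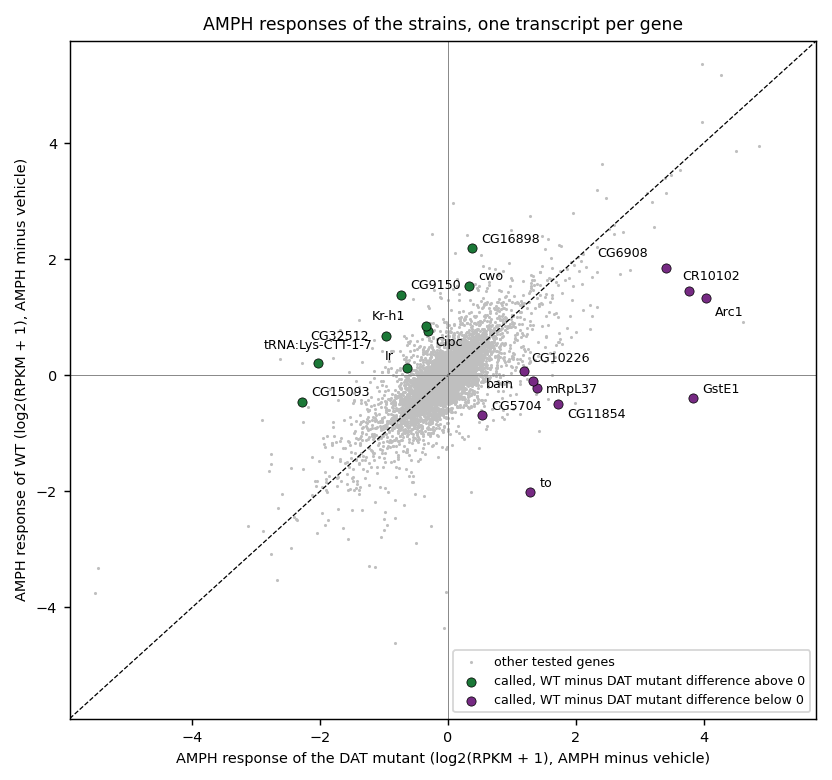
AMPH response of the *DAT* mutant (x axis) and of WT (y axis) for 10332 genes, both as AMPH minus vehicle on the log2(RPKM + 1) scale, with the 19 genes whose responses differed in colour and a dashed line of equal response. Most genes lie along the line (Pearson r = 0.74), *GstE1*, *Arc1* and *takeout* lie far below it, and *CG16898*, *CG9150* and the lysine tRNA gene lie above it.

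The largest called difference was that of *GstE1* (chr2R:14285895-14286729, plus strand), an epsilon-class glutathione S-transferase, an enzyme that joins glutathione to foreign compounds. It had 1602, 808 and 936 RPKM in *DAT* mutant AMPH libraries and 84.6, 68.0 and 68.9 RPKM in *DAT* mutant vehicle libraries. In WT it had 13.5, 24.5, 20.3 and 17.4 RPKM in AMPH libraries and 21.2, 23.7 and 29.6 RPKM in vehicle libraries. All 3 *DAT* mutant AMPH libraries stood above every other library, while AMPH and vehicle overlapped in WT. The difference was -4.23 (SE 0.34, adjusted p = 0.000274), and its adjusted p was at most 0.00222 with any library left out.

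The genes beside *GstE1* did not share its pattern. *GstE1* heads a row of epsilon-class genes on the same strand, of which *GstE2*, 263 bp away, had a difference of -0.17 (limma, adjusted p = 0.999), *GstE3*, 1492 bp away, one of -1.16 (adjusted p = 0.675), and *GstE7* and *GstE8*, 7695 and 8609 bp away, had 0.92 (adjusted p = 0.675) and 1.51 (adjusted p = 0.257). *GstE3* had 326, 196 and 245 RPKM in *DAT* mutant AMPH libraries and 61.8, 43.9 and 42.3 RPKM in *DAT* mutant vehicle libraries, against 66.9, 161, 127 and 79.9 RPKM in WT AMPH libraries and 38.0, 53.0 and 43.7 RPKM in WT vehicle libraries. It was therefore above the vehicle libraries in both strains, whereas *GstE1* was so in the *DAT* mutant alone, a contrast between genes that was not tested. *GstE8* had 39.2, 25.2 and 21.5 RPKM in *DAT* mutant AMPH libraries and 17.2, 10.4 and 13.6 RPKM in *DAT* mutant vehicle libraries, against 18.3, 30.6, 33.97 and 20.2 RPKM in WT AMPH libraries and 2.94, 4.63 and 3.31 RPKM in WT vehicle libraries. On AMPH the strains overlapped for *GstE8*, and the strains stood apart on vehicle. Of the 14 epsilon-class genes tested 1 was called and 4 had an unadjusted p below 0.05 (28.6%, against 5.53% over all genes), 2 in each direction. Their median difference was -0.15, against 0.01 over all genes, and 0.07 with all 15 libraries, against -0.13 over all genes. None (0) of the 10 delta-class genes, which are related detoxification enzymes, was called for the difference or had an unadjusted p below 0.05. Their differences ran between -0.57 (*GstD8*) and 0.39 (*GstD5*), and 5 of the 10 rose on AMPH in the *DAT* mutant (5.80% over all genes) and 6 in WT (9.80%). Without WT AMPH replicate 4, 1 of the 10 had an unadjusted p below 0.05. Related Gst genes share sequence, so reads may be split among members.

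*takeout* (listed as *to*, chr3R:21065902-21067175), its neighbour *CG11854* (chr3R:21067771-21068985, same strand, 595 bp away) and *bam* (chr3R:21068761-21070884, opposite strand) lay side by side and differed between strains in the same direction. *takeout* encodes a secreted protein of the juvenile hormone binding type that links the clock to feeding, and *CG11854* belongs to the same family. *takeout* had 2904, 2293 and 3001 RPKM in *DAT* mutant AMPH libraries and 958, 936 and 1518 RPKM in *DAT* mutant vehicle libraries, against 33.2, 10.5, 19.1 and 38.0 RPKM in WT AMPH libraries and 69.6, 120.0 and 100.04 RPKM in WT vehicle libraries. It rose in the *DAT* mutant (1.29, adjusted p = 0.0505) and fell in WT (-2.01, adjusted p = 0.00279), with no overlap between AMPH and vehicle in either strain, and the difference was -3.30 (SE 0.53, adjusted p = 0.0399). The call was lost in 5 of the 13 fits, with the highest adjusted p, 0.135, without *DAT* mutant vehicle replicate 1. The unused *DAT* mutant vehicle library had 2365 RPKM, within the range of the AMPH libraries of that strain.

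*CG11854* had 151, 145 and 336 RPKM in *DAT* mutant AMPH libraries and 53.3, 51.7 and 71.7 RPKM in *DAT* mutant vehicle libraries, against 1.38, 0.823, 1.28 and 2.11 RPKM in WT AMPH libraries and 2.18, 2.38 and 2.41 RPKM in WT vehicle libraries. The strains did not overlap on either food, and the difference in response was -2.22 (SE 0.38, adjusted p = 0.0582), with a rise in the *DAT* mutant (1.72, adjusted p = 0.00217) and a response of -0.50 in WT that was not called (adjusted p = 0.221). The call was lost in 6 of the 13 fits, with the highest adjusted p, 0.182, without *DAT* mutant vehicle replicate 3. *bam*, which drives germline stem cells into differentiation, had 2.90, 3.79 and 5.76 RPKM in *DAT* mutant AMPH libraries and 0.671, 1.11 and 1.26 RPKM in *DAT* mutant vehicle libraries. In WT it had 0.0390 to 0.0760 RPKM in AMPH libraries and 0.0920 to 0.163 RPKM in vehicle libraries, which corresponds to about 2.9 to 12.7 reads. It was thus hardly counted in WT, and its difference of -1.42 (SE 0.26, adjusted p = 0.0841) was lost in 12 of the 13 fits, with the highest adjusted p, 0.214, without *DAT* mutant vehicle replicate 1, and also with median centring (0.134) or a pseudocount of 0.1 (0.219). The transcripts of *CG11854* and *bam* overlap by 225 bp on opposite strands, and as strand is not stated for the counting, reads in the overlap cannot be told apart.

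The rest of the takeout family had smaller differences, with no other member called. Of 19 members tested 2 were called, both with a negative difference, and 5 had an unadjusted p below 0.05 (26.3%, against 5.53% over all genes), 1 of them positive. The median difference was -0.23. On AMPH, 2 members rose in the *DAT* mutant, *takeout* and *CG11854*, and 8 fell, against 5.80% and 10.9% of all genes. In WT none (0) rose and 10 fell, against 9.80% and 14.3% of all genes. *Jhbp13* is an example of the shared fall, with a mean of 61.8 RPKM in *DAT* mutant AMPH libraries and 341 RPKM in *DAT* mutant vehicle libraries, against 24.5 RPKM in WT AMPH libraries and 194 RPKM in WT vehicle libraries. Its difference was -0.52 (SE 0.35, adjusted p = 0.999).

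*Arc1* (chr2R:10245428-10247799, minus strand) and *CR10102* (chr2R:10248809-10249506, minus strand, 1009 bp away) rose in both strains and rose more in the *DAT* mutant. *Arc1* is the activity-regulated homolog of the mammalian memory gene *Arc* and forms virus-like capsids that carry its RNA, and *CR10102* (listed as *CG10102*, also *Arc3*) is annotated as a pseudogene. *Arc1* had 784, 628 and 975 RPKM in *DAT* mutant AMPH libraries and 51.2, 55.7 and 35.9 RPKM in *DAT* mutant vehicle libraries, against 911, 688, 333 and 459 RPKM in WT AMPH libraries and 174, 289 and 210.2 RPKM in WT vehicle libraries. On AMPH the strains overlapped, and on vehicle all *DAT* mutant libraries lay below all WT libraries. Its response in the *DAT* mutant was 4.04, against 1.34 in WT, and the difference was -2.70 (SE 0.46, adjusted p = 0.0496). The call was lost in 8 of the 13 fits, with the highest adjusted p, 0.163, without *DAT* mutant AMPH replicate 3, and with all 15 libraries the adjusted p was 0.407.

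*CR10102* followed *Arc1*, with 197, 243 and 327 RPKM in *DAT* mutant AMPH libraries and 19.2, 20.6 and 13.3 RPKM in *DAT* mutant vehicle libraries, against 317, 256, 159 and 161 RPKM in WT AMPH libraries and 64.0, 118 and 62.4 RPKM in WT vehicle libraries. Its strains likewise overlapped on AMPH and did not on vehicle. The difference was -2.32 (SE 0.43, adjusted p = 0.0841), lost in 11 of the 13 fits (highest adjusted p 0.234, without *DAT* mutant AMPH replicate 3) and also after quantile normalization (0.164) and median centring (0.114). *Arc2*, which overlaps *CR10102* by 58 bp on the other strand, had 42.8, 25.96 and 48.5 RPKM in *DAT* mutant AMPH libraries and 8.55, 11.0 and 5.20 RPKM in *DAT* mutant vehicle libraries, against 33.5, 35.4, 41.4 and 39.1 RPKM in WT AMPH libraries and 10.5, 20.5 and 20.9 RPKM in WT vehicle libraries. Its difference was -0.998 (SE 0.40, unadjusted p = 0.0281, adjusted p = 0.793). The 3 Arc genes are related in sequence, so that some reads may have been assigned to another copy.

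Most other activity-regulated genes below an unadjusted p of 0.05 had a difference of the opposite sign to *Arc1*. Of 13 tested, 8 had an unadjusted p below 0.05 (61.5%, against 5.53% over all genes), and 6 of these 8 had a positive difference: *Hr38*, *sr*, *cbt*, *CG30497*, *CG17778* and *CG14186*, between 0.41 and 1.08. This list and the others were chosen with earlier results of these data known, so their shares describe the lists and are no test of enrichment. *Hr38*, a nuclear receptor and widely used activity marker of the fly brain, had 4.96, 5.69 and 4.26 RPKM in *DAT* mutant AMPH libraries and 6.64, 7.37 and 8.05 RPKM in *DAT* mutant vehicle libraries, against 4.24, 5.26, 4.40 and 7.22 RPKM in WT AMPH libraries and 3.00, 3.52 and 2.82 RPKM in WT vehicle libraries. It fell in the *DAT* mutant (-0.49, adjusted p = 0.0757) and rose in WT (0.59, adjusted p = 0.0196), and on AMPH the strains overlapped. The difference was 1.08 (SE 0.22, adjusted p = 0.16), which did not pass the threshold.

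*sr*, the fly homolog of the immediate-early Egr factors, had 5.56, 4.00 and 3.94 RPKM in *DAT* mutant AMPH libraries and 4.74, 6.71 and 7.21 RPKM in *DAT* mutant vehicle libraries, against 5.20, 6.07, 5.5 and 3.94 RPKM in WT AMPH libraries and 3.89, 3.44 and 3.06 RPKM in WT vehicle libraries. Its vehicle libraries did not overlap between strains and its AMPH libraries did (difference 0.85, SE 0.24, adjusted p = 0.416). *kay* and *Jra*, the fly Fos and Jun, had differences of -0.08 and 0.00. The number of these 13 genes at an unadjusted p below 0.05 was 1 with all 15 libraries, *DAT* mutant vehicle replicate 2 having *Hr38* at 0.885 and *sr* at 1.66 RPKM, and it lay between 4 and 8 when single libraries were left out, with 4 without *DAT* mutant vehicle replicate 4 and 4 without *DAT* mutant AMPH replicate 3.

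The remaining genes with a negative difference had higher RPKM on AMPH in the *DAT* mutant. *CG6908* (chr3R:7514099-7515745, minus strand), a predicted member of the ecdysteroid kinase-like family, had 225, 269.5 and 264 RPKM in *DAT* mutant AMPH libraries and 26.7, 19.6 and 22.4 RPKM in *DAT* mutant vehicle libraries, against 134, 169, 135 and 109 RPKM in WT AMPH libraries and 34.6, 44.7 and 32.2 RPKM in WT vehicle libraries. It rose in both strains, with a response of 3.42 in the *DAT* mutant against 1.85 in WT, the strains did not overlap on either food, and their order on vehicle was the reverse of that on AMPH. The difference was -1.57 (SE 0.23, adjusted p = 0.0293), and it was called with any library left out and with all 15. Its nearest neighbours *CG6834* and *CG18765*, 246 and 361 bp away on the same strand and of the same predicted family, had differences of -1.27 (limma, adjusted p = 0.546) and -1.17 (adjusted p = 0.257), and *Fer3*, a transcription factor gene 3386 bp away, one of -1.44 (adjusted p = 0.546). None (0) of these 3 passed the adjusted threshold. Farther out within 30 kb, *CG6830*, *CG18476* and *CG42327* had differences of 0.13, 0.20 and 0.26 (limma, unadjusted p = 0.570, 0.168 and 0.0311). *Ho*, *Taf12* and *CG14715* had -0.23, -0.25 and -0.08 (unadjusted p = 0.159, 0.265 and 0.777).

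*mRpL37* (chr3R:6608285-6609794, minus strand), a protein of the large mitochondrial ribosomal subunit, had 36.5, 50.5 and 31.0 RPKM in *DAT* mutant AMPH libraries and 14.7, 13.6 and 13.8 RPKM in *DAT* mutant vehicle libraries. In WT it had 16.4, 11.3, 13.96 and 14.9 RPKM in AMPH libraries and 16.2, 15.4 and 17.9 RPKM in vehicle libraries. Only the *DAT* mutant AMPH libraries stood apart among the 13, and the difference was -1.61 (SE 0.22, adjusted p = 0.0293). The unused *DAT* mutant vehicle library had 36.5 RPKM, level with the AMPH libraries, and with all 15 the adjusted p was 0.884. Of the 73 mitochondrial ribosomal protein genes tested *mRpL37* was the 1 called and the 1 with an unadjusted p below 0.05 (1.37%, against 5.53% over all genes). Their median difference was -0.06. The number at this level was 4 without *DAT* mutant vehicle replicate 1, *DAT* mutant vehicle replicate 4 or WT vehicle replicate 3. 3 genomic neighbours with negative differences were *CG42633* (295 bp away, difference -1.28, limma, adjusted p = 0.153), *fau* (5201 bp, -0.93, adjusted p = 0.543) and *CG14687* (8833 bp, -0.96, adjusted p = 0.258). None (0) of these 3 passed the adjusted threshold. *Art1*, 2408 bp away, had a difference of 0.10 (limma, unadjusted p = 0.501). *CG14692*, *TfIIFbeta*, *Cap-H2* and *MED7*, farther out, had 0.13, 0.05, -0.15 and 0.07 (unadjusted p = 0.636, 0.734, 0.387 and 0.693).

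*CG10226* (chr3L:6227417-6232689, minus strand) encodes an ABC transporter of the P-glycoprotein group, which pumps foreign compounds out of cells. It had 20.1, 22.4 and 22.5 RPKM in *DAT* mutant AMPH libraries and 9.48, 7.68 and 9.81 RPKM in *DAT* mutant vehicle libraries, against 14.1, 12.7, 11.8 and 15.2 RPKM in WT AMPH libraries and 11.0, 11.1 and 16.6 RPKM in WT vehicle libraries. It rose in the *DAT* mutant (1.19, adjusted p = 0.00049), and AMPH and vehicle overlapped in WT. The difference of -1.11 (SE 0.21, adjusted p = 0.0875) was lost in 11 of the 13 fits, with the highest adjusted p, 0.254, without *DAT* mutant vehicle replicate 3. *Mdr65*, 910 bp away on the same strand, is the P-glycoprotein of the fly blood-brain barrier. It averaged 11.5 ± 1.27 RPKM in *DAT* mutant AMPH libraries (SD, n = 3) and 10.6 ± 1.74 in *DAT* mutant vehicle libraries (n = 3), against 6.74 ± 0.778 in WT AMPH libraries (n = 4) and 11.0 ± 0.678 in WT vehicle libraries (n = 3). The low group was therefore WT on AMPH, and the difference was -0.76 (unadjusted p = 0.000832, adjusted p = 0.213).

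*CG5704* (chr3L:2169622-2170941, minus strand), a gene with no role named here, had 7.43, 6.76 and 7.11 RPKM in *DAT* mutant AMPH libraries and 5.35, 4.05 and 4.39 RPKM in *DAT* mutant vehicle libraries, against 3.83, 5.45, 4.49 and 5.52 RPKM in WT AMPH libraries and 8.86, 7.29 and 8.86 RPKM in WT vehicle libraries. It rose in the *DAT* mutant (0.54, adjusted p = 0.0219) and fell in WT (-0.69, adjusted p = 0.00297), without overlap in either strain. The difference was -1.23 (SE 0.18, adjusted p = 0.0293). With all 15 libraries, where *DAT* mutant vehicle replicate 2 had 0.0700 RPKM, it was -1.86 (adjusted p = 0.884).

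**Figure D2:**
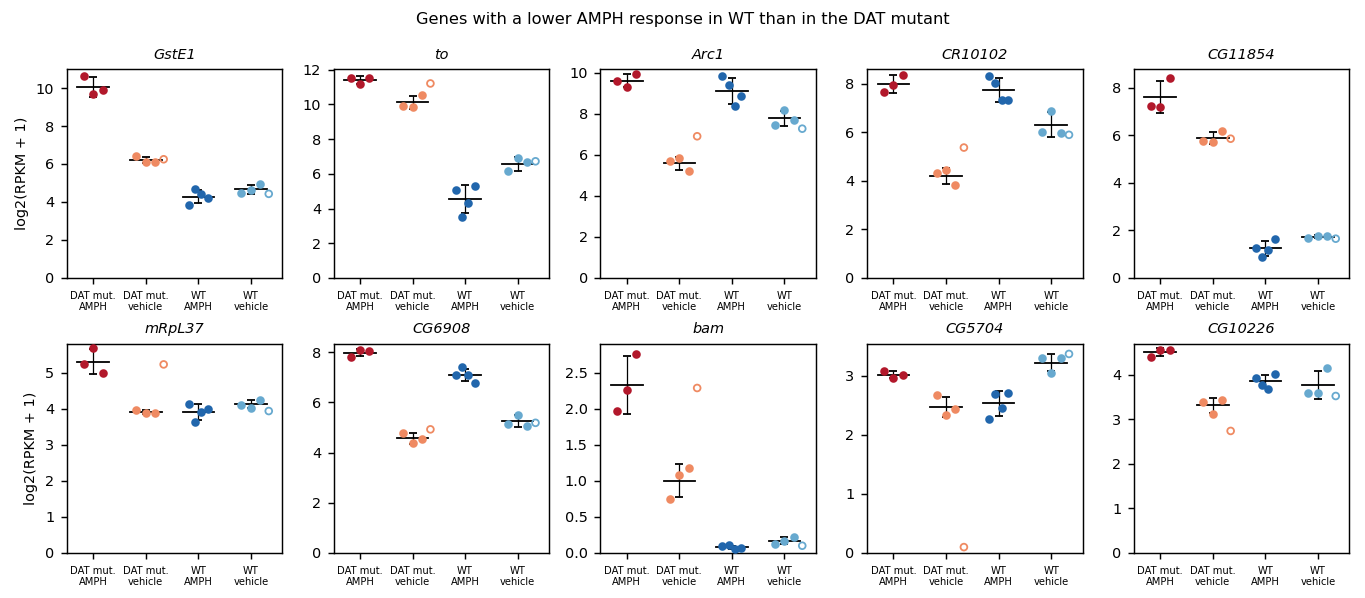
Level of the 10 genes with a negative difference in log2(RPKM + 1), with 1 point a library, the group mean as a line and its SD as a bar (n = 3, 3, 4 and 3 in the order *DAT* mutant AMPH, *DAT* mutant vehicle, WT AMPH and WT vehicle), and open points for the 2 unused libraries. In each panel the *DAT* mutant AMPH libraries lie above the *DAT* mutant vehicle libraries used, and for *mRpL37*, *bam* and *takeout* the open *DAT* mutant point lies among or near the AMPH libraries.

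A single gene of the clock list was called, with a positive difference. *cwo* (chr3R:6213985-6226072, plus strand), a repressor of the circadian loop, had 40.1, 47.3 and 40.6 RPKM in *DAT* mutant AMPH libraries and 36.3, 30.2 and 34.4 RPKM in *DAT* mutant vehicle libraries, against 42.7, 49.1, 60.2 and 42.7 RPKM in WT AMPH libraries and 19.0, 14.4 and 14.6 RPKM in WT vehicle libraries. It rose in WT (1.54, adjusted p = 3.66e-05) and its response of 0.33 in the *DAT* mutant was not called (adjusted p = 0.18). The WT vehicle libraries were the low group, and on AMPH the strains overlapped. The difference was 1.21 (SE 0.20, adjusted p = 0.0485), lost in 7 of the 13 fits (highest adjusted p 0.163, without *DAT* mutant AMPH replicate 3).

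*Cipc* (listed as *CG31324*, chr3R:21932592-21955912, plus strand), the homolog of a CLOCK-interacting protein of mammals, had 25.7, 28.2 and 22.8 RPKM in *DAT* mutant AMPH libraries and 32.3, 30.02 and 33.6 RPKM in *DAT* mutant vehicle libraries, against 20.4, 24.2, 19.9 and 24.7 RPKM in WT AMPH libraries and 13.3, 11.3 and 13.6 RPKM in WT vehicle libraries. The vehicle groups of the strains lay far apart and the AMPH groups overlapped. The difference was 1.07 (SE 0.16, limma, adjusted p = 0.0293), with a rise in WT (0.76, adjusted p = 0.000613) and a response of -0.32 in the *DAT* mutant just outside the threshold (adjusted p = 0.103). With all 15 libraries the difference of *Cipc* was 0.77 (adjusted p = 0.884). Of 15 clock genes tested, *cwo* was called and *vri* (0.53, SE 0.18, unadjusted p = 0.0129) was the other at an unadjusted p below 0.05. The core genes *per*, *tim*, *Clk* and *cyc* had differences between -0.13 and 0.16. *Cipc* is not a member of that list. The median difference of the 15 was 0.09 and 11 were above 0, against -0.09 and 5 with all 15 libraries. Over all genes the median was 0.01, against -0.13 with all 15 libraries.

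*Kr-h1* (chr2L:6091569-6096498, plus strand), the zinc-finger factor that juvenile hormone induces through its receptors, had 27.2, 28.8 and 29.0 RPKM in *DAT* mutant AMPH libraries and 35.6, 34.4 and 39.1 RPKM in *DAT* mutant vehicle libraries, against 39.7, 39.1, 44.1 and 31.6 RPKM in WT AMPH libraries and 22.4, 19.5 and 20.5 RPKM in WT vehicle libraries. It fell in the *DAT* mutant (-0.35, adjusted p = 0.0708) and rose in WT (0.86, adjusted p = 0.000268), with no overlap between foods or between strains, and the order of the strains on AMPH was the reverse of that on vehicle. The difference was 1.20 (SE 0.16, adjusted p = 0.0241). With all 15 libraries, where the unused *DAT* mutant and WT vehicle libraries had 12.9 and 31.2 RPKM, it was 0.71 (adjusted p = 0.884). The receptors *Met* and *gce* had differences of -0.21 and -0.06, and their partner *tai* one of -0.05. Of the 17 juvenile hormone genes tested 1 was called and 5 had an unadjusted p below 0.05 (29.4%, against 5.53% over all genes). Apart from *Kr-h1* these were *Jhbp11* (1.15) and the esterase *Jhe* (0.89), both positive, and the epoxide hydrolase *Jheh3* (-0.63) and *JhI-26* (-0.46), both negative. The count of 5 was 2 without *DAT* mutant vehicle replicate 3, 3 without *DAT* mutant vehicle replicate 4 or *DAT* mutant AMPH replicate 1, 1 without WT vehicle replicate 4 and 1 with all 15 libraries.

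*CG9150* (chr2L:6067668-6068635, minus strand), a predicted short-chain dehydrogenase, lies 22933 bp from *Kr-h1*. It had 12.3, 9.89 and 10.6 RPKM in *DAT* mutant AMPH libraries and 21.6, 19.97 and 15.1 RPKM in *DAT* mutant vehicle libraries, against 8.98, 6.64, 4.89 and 9.16 RPKM in WT AMPH libraries and 3.61, 1.53 and 1.67 RPKM in WT vehicle libraries. It fell in the *DAT* mutant (-0.73, adjusted p = 0.0807) and rose in WT (1.39, adjusted p = 0.00173), and every *DAT* mutant library lay above every WT library. The difference was 2.11 (SE 0.34, adjusted p = 0.0399), lost in 6 of the 13 fits (highest adjusted p 0.135, without *DAT* mutant vehicle replicate 1), and called with all 15 libraries (2.27, adjusted p = 0.0364). Between both genes lies *Kr-h2* and near them *Fbw5*, with differences of 0.47 and 0.56 (limma, unadjusted p = 0.0293 and 0.00913, adjusted p = 0.793 and 0.568). *Pfdn1* and *CG9154*, also between both genes, had differences of 0.07 and -0.10 (unadjusted p = 0.730 and 0.486). *CG9175*, 196 bp from *Kr-h1*, had one of 0.25 (unadjusted p = 0.146).

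*Ir* (also *Irk1*, chr3R:19008642-19011284, plus strand), an inwardly rectifying potassium channel, had 7.71, 7.77 and 7.77 RPKM in *DAT* mutant AMPH libraries and 12.97, 12.999 and 12.1 RPKM in *DAT* mutant vehicle libraries, against 9.20, 8.43, 8.21 and 8.58 RPKM in WT AMPH libraries and 8.78, 7.86 and 6.76 RPKM in WT vehicle libraries. The *DAT* mutant vehicle libraries were the group that stood apart. *Ir* fell in the *DAT* mutant (-0.64, adjusted p = 0.00101), and its response in WT was 0.13 (adjusted p = 0.329). The difference of 0.78 (SE 0.13, adjusted p = 0.042) was the smallest of the 19 and was lost in 5 of the 13 fits (highest adjusted p 0.135, without *DAT* mutant vehicle replicate 1). *cnc*, the Nrf2 homolog that drives detoxification genes, ends 15 bp from it on the other strand and had a difference of 0.50 (unadjusted p = 0.0107).

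*CG15093* (chr2R:14663174-14664546, minus strand), the homolog of a mitochondrial dehydrogenase of valine breakdown, had 7.64, 5.44 and 4.68 RPKM in *DAT* mutant AMPH libraries and 36.7, 25.9 and 35.1 RPKM in *DAT* mutant vehicle libraries, against 12.98, 19.6, 16.9 and 11.7 RPKM in WT AMPH libraries and 24.3, 17.6 and 21.6 RPKM in WT vehicle libraries. It fell in the *DAT* mutant (-2.28, adjusted p = 5.83e-05) and in WT its response of -0.46 was not called (adjusted p = 0.135). The *DAT* mutant AMPH libraries lay below all others. The difference was 1.83 (SE 0.29, adjusted p = 0.0399), lost in 6 of the 13 fits (highest adjusted p 0.135, without *DAT* mutant vehicle replicate 1), and 2.03 with all 15 (adjusted p = 0.047).

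*CG16898* (chr2R:15891124-15892492, minus strand), like *CG6908* a predicted ecdysteroid kinase-like gene, had 3.17, 5.004 and 3.36 RPKM in *DAT* mutant AMPH libraries and 2.93, 3.00 and 2.20 RPKM in *DAT* mutant vehicle libraries. In WT it had 28.7, 16.98, 16.2 and 31.6 RPKM in AMPH libraries and 3.68, 4.97 and 3.85 RPKM in vehicle libraries. The WT AMPH libraries alone were high. The difference was 1.81 (SE 0.33, adjusted p = 0.0827), lost in 9 of the 13 fits (highest adjusted p 0.238, without *DAT* mutant vehicle replicate 3) and also with median centring (0.103). The unused WT vehicle replicate 1 had about 5.0 reads, and the call was lost with this library added. With all 15 libraries the difference was 2.16 (adjusted p = 0.884), and with all 15 weighted 2.24 (adjusted p = 0.337). With a replicate block the adjusted p was 0.273. Both kinase-like genes thus rose in WT, and *CG6908* rose further in the *DAT* mutant while *CG16898* was not called there (0.37, adjusted p = 0.37).

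*CG32512* (chrX:20933411-20938549, minus strand), a gene with no role named here that lies over part of *bves* on the other strand, had 3.45, 2.59 and 3.83 RPKM in *DAT* mutant AMPH libraries and 6.46, 7.18 and 8.31 RPKM in *DAT* mutant vehicle libraries, against 5.03, 4.92, 7.54 and 4.36 RPKM in WT AMPH libraries and 2.99, 3.56 and 2.504 RPKM in WT vehicle libraries. It fell in the *DAT* mutant (-0.96, adjusted p = 0.00463) and rose in WT (0.67, adjusted p = 0.0162), with no overlap between foods or strains. The difference was 1.63 (SE 0.24, limma, adjusted p = 0.0293), while *bves* had one of 0.13 (unadjusted p = 0.452). With all 15 libraries the difference of *CG32512* was 1.26 (adjusted p = 0.858), and its call was also lost with RPKM rounded to whole numbers (0.107).

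The lysine tRNA gene *tRNA:Lys-CTT-1-7* (listed as tRNA:K2:42Eb, chr2R:2835243-2835315, minus strand) was listed at 0 in all 3 *DAT* mutant AMPH libraries and had 3.21, 2.44 and 3.70 RPKM in *DAT* mutant vehicle libraries, against 1.99, 1.55, 0.355 and 0.437 RPKM in WT AMPH libraries and 1.16, 0.661 and 0.371 RPKM in WT vehicle libraries. Over its 73 bases these values correspond to 0 reads in *DAT* mutant AMPH libraries, 11.0, 2.0 and 3.0 reads in *DAT* mutant vehicle libraries, 1.0 to 8.0 reads in WT AMPH libraries and 1.0 to 6.0 reads in WT vehicle libraries. The fitted difference of 2.24 (SE 0.40, adjusted p = 0.0682) therefore rests on few reads, depends on the pseudocount and is no bound. It was lost in 9 of the 13 fits (highest adjusted p 0.188, without *DAT* mutant AMPH replicate 3) and with RPKM rounded to whole numbers (0.531). The libraries were selected for polyadenylated RNA, and the tRNA lies within the gene *mim* on the same strand, whose reads cannot be told apart from it.

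**Figure D3:**
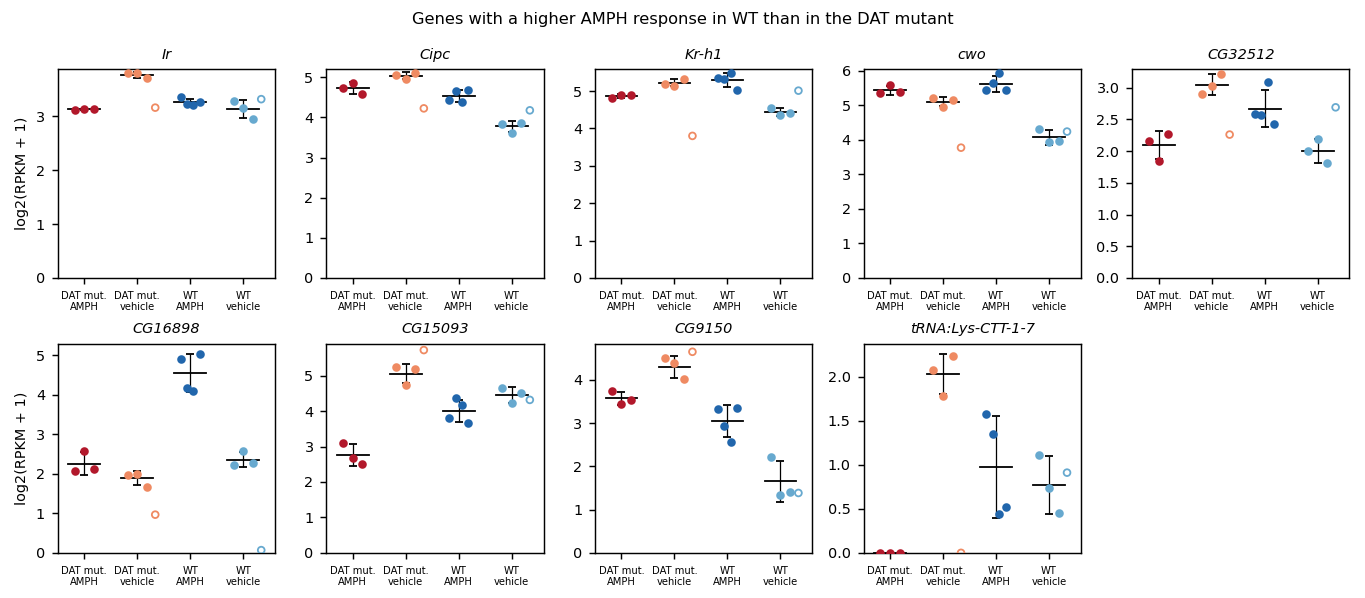
Level of the 9 genes with a positive difference in log2(RPKM + 1), with 1 point a library, the group mean as a line and its SD as a bar (n = 3, 3, 4 and 3 in the order *DAT* mutant AMPH, *DAT* mutant vehicle, WT AMPH and WT vehicle), and open points for the 2 unused libraries. For *Cipc*, *Kr-h1*, *cwo* and *CG9150* the *DAT* mutant vehicle libraries used lie above the WT vehicle libraries used, and for *CG16898* the WT AMPH libraries alone are high.

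In direction the 19 genes fell into 6 patterns. In 5 genes the *DAT* mutant rose and WT was not called (*GstE1*, *CG11854*, *mRpL37*, *bam* and *CG10226*), and in 3 the *DAT* mutant fell and WT was not called (*Ir*, *CG15093* and the tRNA gene). In 3 WT rose and the *DAT* mutant was not called (*Cipc*, *cwo* and *CG16898*). In 3 both rose (*Arc1*, *CR10102* and *CG6908*). The responses were called with opposite signs in 5: *takeout* and *CG5704* rose in the *DAT* mutant and fell in WT, and *Kr-h1*, *CG32512* and *CG9150* fell in the *DAT* mutant and rose in WT. Over all 10332 genes 12 were called with opposite signs in both strains, so the difference was called for 5 of these 12.

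The same numbers can be read as a gap between the strains on each food, since the difference in response equals the gap on vehicle minus the gap on AMPH, where the gap is *DAT* mutant minus WT. Gaps are compared by size, whatever their sign. It is the same contrast and adds no support. Over all genes the strains differed in 924 genes on AMPH (8.94%) and in 806 on vehicle (7.80%). For 7 of the 10 genes with a negative difference the gap was larger on AMPH than on vehicle. The gap of *takeout* was 6.85 on AMPH and 3.54 on vehicle, that of *CG11854* 6.37 and 4.16, and that of *GstE1* 5.77 and 1.54. For 7 of the 9 with a positive difference the gap was smaller on AMPH. *CG9150* was higher in the *DAT* mutant by 0.53 on AMPH and by 2.65 on vehicle, *Cipc* by 0.19 and 1.26, and for *cwo* the gap was -0.18 on AMPH (adjusted p = 0.529) and 1.03 on vehicle (adjusted p = 0.00159). *Arc1* was closed in the same way from the other side, with a gap of 0.49 on AMPH (adjusted p = 0.422) and -2.21 on vehicle (adjusted p = 0.00214).

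**Figure D4:**
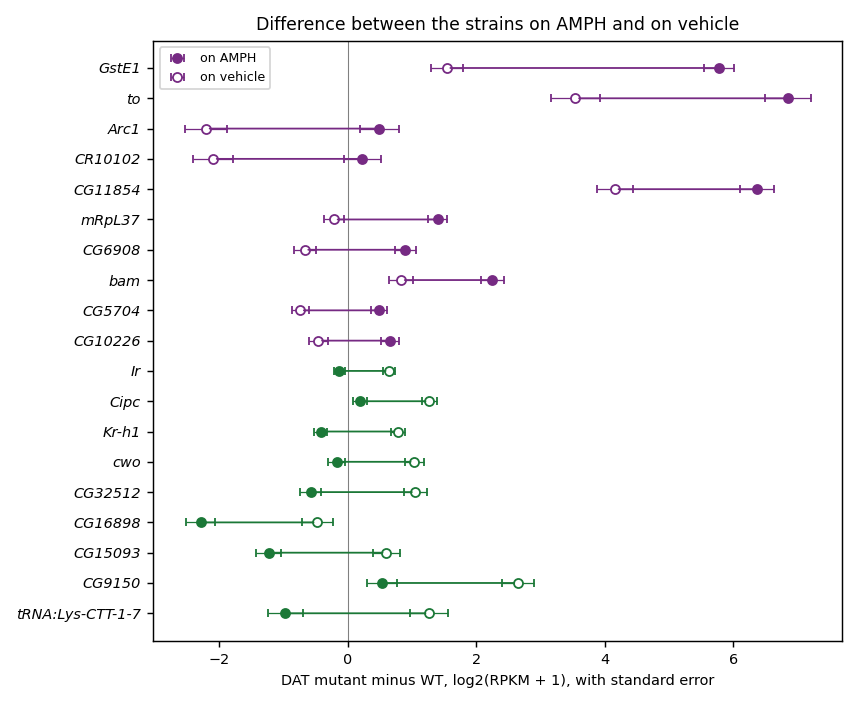
Gap between the strains (*DAT* mutant minus WT, log2(RPKM + 1), with its standard error) on AMPH (filled) and on vehicle (open) for the 19 genes, purple for a negative and green for a positive difference in response. For *GstE1*, *takeout* and *CG11854* the gap is wide on AMPH, while for *Arc1*, *CR10102*, *Cipc*, *cwo* and *CG9150* it is wide on vehicle and near 0 or small on AMPH.

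Neighbours of the 19 genes were also examined. Of the 133 uncalled genes within 30 kb of the 19 on dm3, 23 had an unadjusted p below 0.05 (17.3%, against 5.53% over all genes), and 7 of the 19 had another of the 19 within that distance. No matching share over all genes was computed for these 7. By arm, 8 lay on 3R (0.317% of the genes tested there, against 0.184% over all genes) and 6 on 2R (0.281%). There were 2 each on 2L (0.111%) and 3L (0.102%) and 1 on X (0.0595%). *DAT* itself lies on 2R, and 4 of the 552 genes within 2.5 Mb of it were called (0.725%, against 0.184% over all genes): *GstE1* at 1.84 Mb, *CR10102* and *Arc1* at 2.20 Mb and *CG15093* at 2.21 Mb. *CG16898* followed at 3.44 Mb. Beyond 5 Mb on this arm 1 of 1101 was called, the tRNA gene. At an unadjusted p below 0.05 the share within 2.5 Mb was 5.62%, near that of all genes. Chromosome left beside *DAT* from the donor of the allele and an effect of *DAT* cannot be told apart for genes in this stretch, and differences between the lines elsewhere were not tested.

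The gene lists around the action of AMPH showed few differences between strains. None (0) of 14 dopamine genes was called or had an unadjusted p below 0.05, a level that 1 or 2 of them passed when certain libraries were left out (2 without *DAT* mutant AMPH replicate 3). Their median difference was 0.05, and the ends were *Hn* (0.63), which makes tyrosine, and *Ddc* (-0.50), which makes dopamine. In each strain 6 of these 14 fell, against 10.9% of all genes in the *DAT* mutant and 14.3% in WT, among them the tyrosine hydroxylase gene *ple* (response -1.34 in the *DAT* mutant, against -0.996 in WT) and the vesicular transporter gene *Vmat* (-0.55 and -0.82 in the same order). Among 17 genes of other monoamines none (0) was called or had an unadjusted p below 0.05, between *5-HT1B* (0.09) and *Tdc1* (-0.40).

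Of 31 genes of TOR and insulin signalling none (0) was called, and 2 had an unadjusted p below 0.05 (6.45%, against 5.53% over all genes). These were *foxo*, the transcription factor that insulin signalling restrains, with a difference of 0.79 (limma, adjusted p = 0.558), and *trbl*, an inhibitor of Akt, with -0.61 (adjusted p = 0.694). Of the 31 genes 24 were above 0, with a median of 0.19, and the ends were *Ilp6* (0.95) and *trbl*. With all 15 libraries 11 were above 0 (median -0.05), and with *DAT* mutant vehicle replicate 2 added 9 (median -0.08). The median over all genes moved too, from 0.01 as reported to -0.13 in both of these settings. The count of 2 was 8 without WT AMPH replicate 1, 6 without *DAT* mutant AMPH replicate 1 and 4 without *DAT* mutant vehicle replicate 1 or 3. In the *DAT* mutant 6 rose and 4 fell on AMPH (5.80% and 10.9% over all genes), and in WT 13 rose and 4 fell (9.80% and 14.3%). Of the 13 subunits of eIF3, the initiation factor that brings the small ribosomal subunit to mRNA, 12 were above 0, with a median of 0.19 and values between -0.01 (*eIF3k*) and 0.30 (*eIF3i*), and none (0) had an unadjusted p below 0.05. In the *DAT* mutant 4 of the 13 rose on AMPH, against 5.80% of all genes, and in WT 8, against 9.80%. Cytosolic ribosomal protein genes lay above 0 in 77 of 85 with a median of 0.16, between *RpL34a* (-0.47) and *RpL18* (0.54), none (0) at an unadjusted p below 0.05, and the number above 0 was 50 with a median of 0.03 after quantile normalization. Without WT AMPH replicate 4, 7 of the 85 were at that level. Other initiation factors (median 0.09) ran between *eIF4E6* (-0.20) and *eIF2A* (0.48), and aminoacyl-tRNA synthetases (median 0.08) between *CysRS* (-0.16) and *SerRS* (0.29).

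Among detoxification genes the UDP-glycosyltransferases had 5 of 19 at an unadjusted p below 0.05 (26.3%, against 5.53% over all genes), 4 of them negative. None (0) was called, and the median was -0.25. Their ends were *Ugt305A1* (0.76) and *Ugt37A3* (-1.05), and the count of 5 was 3 without *DAT* mutant vehicle replicate 4 or WT vehicle replicate 3. Of 73 cytochrome P450 genes 5 had an unadjusted p below 0.05 (6.85%, against 5.53% over all genes), and 3 without *DAT* mutant AMPH replicate 2 or 3 or WT vehicle replicate 2. The extremes were *Cyp6d2* (-3.70, SE 0.92, limma, adjusted p = 0.258) and *Cyp4p2* (2.89, SE 1.26, adjusted p = 0.847). *Cyp6d2* had 69.5, 39.1 and 72.5 RPKM in *DAT* mutant AMPH libraries and 1.30, 1.47 and 1.49 RPKM in *DAT* mutant vehicle libraries, against 13.01, 2.41, 0.251 and 0.754 RPKM in WT AMPH libraries and 0.121, 1.15 and 1.03 RPKM in WT vehicle libraries. The strains did not overlap on AMPH. Without WT AMPH replicate 1, the highest of its group, the difference of *Cyp6d2* was -4.41 and was called (adjusted p = 0.00976), as it was with all 15 libraries weighted (adjusted p = 0.0459). These were the 1 of 13 fits with a library left out (highest adjusted p 0.621) and the 1 of 15 other settings that called it. Its adjusted p was 0.293 with all 15 libraries unweighted and 0.737 with a pseudocount of 0.1. The remaining GSTs ran between *GstO3* (-0.43) and *GstT4* (0.53), and the genes of the Cnc-Keap1 path and of glutathione synthesis between *se* (-0.44) and *Prx6c* (0.95), with 12 of 15 above 0.

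Metabolic and immune lists varied more between libraries. *Akh*, the glucagon-like hormone gene, had the largest negative difference of the storage list (-4.29, SE 1.43, adjusted p = 0.616), with 0.223, 0.669 and 0.898 RPKM in *DAT* mutant AMPH libraries and 0.477, 0.499 and 1.01 RPKM in *DAT* mutant vehicle libraries, against 0.441, 0.635, 0.435 and 0.565 RPKM in WT AMPH libraries and 287, 2.79 and 26.4 RPKM in WT vehicle libraries. Its value turned on the WT vehicle libraries. The difference of *Akh* was -2.68 without replicate 2 (adjusted p = 0.463) and -5.81 without replicate 3, where it was called (adjusted p = 0.0533). *Lsp2*, a storage protein, was at the other end (2.15, SE 0.83, adjusted p = 0.779). Of 15 antimicrobial peptide genes 4 had an unadjusted p below 0.05 (26.7%, against 5.53% over all genes). Their differences ran between *Drs* (-1.36) and *BomS1* (1.76), and the count of 4 was 2 without *DAT* mutant vehicle replicate 3 or *DAT* mutant AMPH replicate 2. The 9 genes of the Turandot and JAK-STAT list were all above 0 (7 without *DAT* mutant AMPH replicate 1, 8 with all 15 libraries) but none (0) was called and their standard errors reached 2.43, between *hop* (0.05) and *TotM* (2.00). Heat shock genes (median -0.22) ran between *Hsp70Aa* (-0.62) and *Hsp22* (0.67), and odorant-binding proteins (median 0.03) between *Obp99b* (-2.46) and *Obp57e* (0.97).

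**Figure D5:**
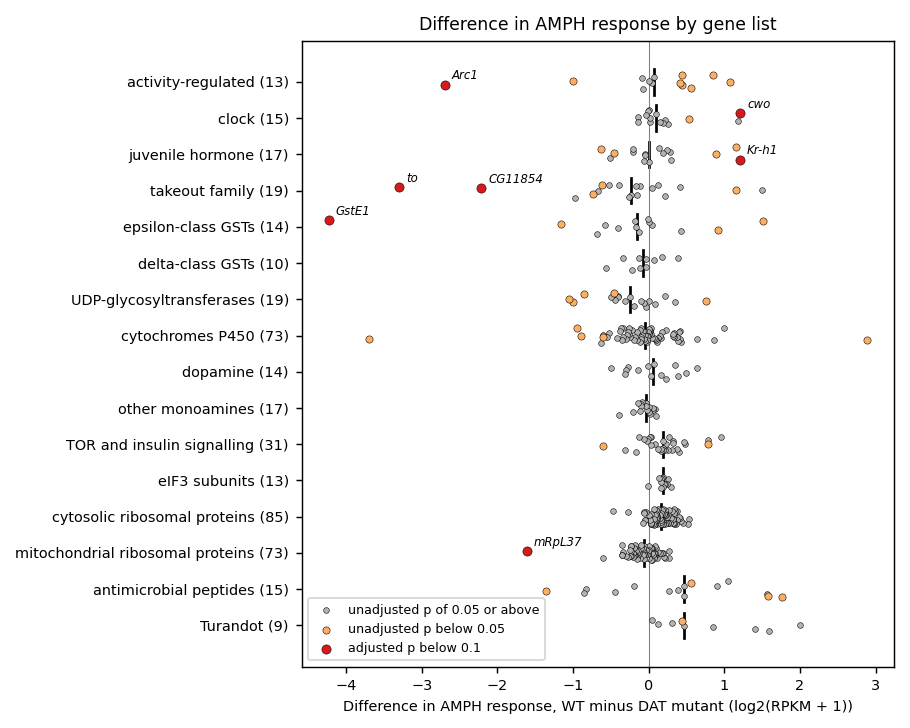
Difference in AMPH response between strains (WT minus *DAT* mutant, log2(RPKM + 1)) for the members of 16 gene lists, with the number tested in brackets, the median as a black bar, and colour for the unadjusted and adjusted p. Activity-regulated genes lie on both sides with *Arc1* far to the left, *takeout*, *CG11854* and *GstE1* stand apart from their families, and dopamine genes lie close to 0.

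Cell type markers were read beside these results. Neuron, glia and photoreceptor markers were present in all groups, as the labelled tissue implies. The summed level of 9 neuron markers was 1260 to 1795 RPKM in *DAT* mutant AMPH libraries and 1859 to 2154 RPKM in *DAT* mutant vehicle libraries, against 1154 to 1655 RPKM in WT AMPH libraries and 1699 to 2006 RPKM in WT vehicle libraries. That of 9 glia markers was 470.2 to 483 RPKM in *DAT* mutant AMPH libraries and 623 to 844 RPKM in *DAT* mutant vehicle libraries, against 581 to 676 RPKM in WT AMPH libraries and 730 to 886 RPKM in WT vehicle libraries. Both sums were lower on AMPH without overlap in each strain, and the glia sum was lower in the *DAT* mutant on AMPH without overlap between strains. A sum follows its most abundant members, and the share of all genes without such overlap was not computed. Of the 9 neuron markers 1 was called lower on AMPH in the *DAT* mutant and 3 in WT. Of the 9 glia markers 5 were called lower in the *DAT* mutant, and 3 lower and 1 higher in WT. Over all genes 10.9% were called lower in the *DAT* mutant and 14.3% in WT. The summed level of 5 fat body markers was 30.4 to 43.7 RPKM in *DAT* mutant AMPH libraries and 167 to 218 RPKM in *DAT* mutant vehicle libraries, against 58.0 to 81.3 RPKM in WT AMPH libraries and 149 to 183 RPKM in WT vehicle libraries, and 1 of the 5, *Lsp2*, had an unadjusted p below 0.05 for the difference (none, 0, without *DAT* mutant vehicle replicate 3 or WT vehicle replicate 4, and 2 without WT vehicle replicate 2). The sum was lower on AMPH in both strains without overlap, while *takeout*, which the fat body of the head expresses, rose in the *DAT* mutant. Of the 5 fat body markers 3 were called lower on AMPH in the *DAT* mutant and 1 in WT. All 8 muscle markers had a negative difference, between -1.05 (*Act88F*) and -0.25 (*wupA*), with a median of -0.43 and 1 at an unadjusted p below 0.05. That count was 4 without *DAT* mutant vehicle replicate 1, 3 without WT AMPH replicate 1, 2 without WT AMPH replicate 4 or WT vehicle replicate 2, 4 without WT vehicle replicate 3 and 6 with weights. Their summed level was 1039 to 1142 RPKM in *DAT* mutant AMPH libraries and 1172 to 1415 RPKM in *DAT* mutant vehicle libraries, against 1020.4 to 1453 RPKM in WT AMPH libraries and 1720 to 2212 RPKM in WT vehicle libraries. Only 1 of 10 testis and male gland markers was tested, *betaTub85D*, at 0.889 to 1.98 RPKM over the 13 libraries, and the 3 gut markers tested summed to 8.60 to 551 RPKM. Fewer cells of a type and less RNA per cell cannot be told apart in whole heads, and the part of any of these in the differences was not tested.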

How the data were processed

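The authors made polyA-selected Ion Torrent libraries from single heads, mapped reads to dm3 with tmap in Torrent Suite and deposited RPKM values per transcript (scaled to length and library size), and whether counting used strand is not given in the sources used here. Single-library tables equalled the series table. Gene symbols were matched for 10188 genes, and coordinates are those of dm3.

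One transcript per gene was kept (highest mean RPKM over the 13 libraries), with at least 1 RPKM in at least 3 of these. Group means of log2(RPKM + 1) were fitted with limma 3.58.1 (R 4.3.3, empirical Bayes with trend) in one model of 4 groups, with Benjamini-Hochberg adjustment over 10332 genes and a threshold of 0.1. The study used a count model within strains. RPKM are not counts, so limma was used. Replicates are separate flies. The script was tested on simulated data.

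The genes named are every gene past the threshold for the difference, the ends of each gene list with no called member, and *DAT*. Other genes were named for their position, their place in a list or, as *Jhbp13*, *Cyp6d2* and *Akh*, after their values were seen. Members and lists were chosen with earlier results of these data known. Depth came from whole-read steps of 693 single-exon transcripts (at least 99.1% of low values within 0.1 reads of a whole number), with lengths from a later annotation. Alternatives changed libraries, filters, pseudocount, transcript choice, scaling, block, trend and threshold. Figures were drawn with matplotlib 3.10.9. One neighbouring gene is not reported here.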

Additional observations from a re-analysis of the deposited data

Results flagged for a closer look

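The AMPH response differed between strains, by the test of the difference itself, in the 19 genes described above. The WT minus *DAT* mutant difference on the log2 scale was -4.23 for *GstE1*, -3.30 for *to*, -2.70 for *Arc1*, -2.32 for *CR10102*, -2.22 for *CG11854*, -1.61 for *mRpL37*, -1.57 for *CG6908*, -1.42 for *bam*, -1.23 for *CG5704* and -1.11 for *CG10226*. It was 0.78 for *Ir*, 1.07 for *Cipc*, 1.20 for *Kr-h1*, 1.21 for *cwo*, 1.63 for *CG32512*, 1.81 for *CG16898*, 1.83 for *CG15093*, 2.11 for *CG9150* and 2.24 for *tRNA:Lys-CTT-1-7*.

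In 8 of the 57 gene and group combinations with 4 libraries, 1 library stood apart by its gap to the nearest other as a share of the group's range. Chance gives this in about 1 in 20 groups when genes are taken without regard to their values. That rate does not apply here, because these genes were called from the same values. The libraries not used in the fit took no part in that choice. Libraries of a gene set are also not independent, and the count of 8 was not tested against chance. The share was 0.922 for *mRpL37*, 0.884 for *Kr-h1*, 0.871 for *CG5704* and 0.851 for *Ir* in *DAT* mutant vehicle replicate 2, which was not used in the fit. It was 0.86 for *CG16898* in WT vehicle replicate 1, also not used. Among libraries in the fit it was 0.916 for *CG9150* in WT vehicle replicate 2, 0.867 for *CR10102* in WT vehicle replicate 3 and 0.884 for *CG10226* in WT vehicle replicate 4.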

How the results depend on the processing

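None (0) of the 19 differences changed sign under any alternative, and over all combinations of gene and alternative the call was kept in 376 and lost in 153. The count of 19 was 6 with all 15 libraries, 1 with *DAT* mutant vehicle replicate 2 added, 45 with all 15 weighted, and 9 to 30 with single libraries left out. The *DAT* mutant response count of 1723 was 608 with all 15, 549 with *DAT* mutant vehicle replicate 2 added and 1004 to 1825 with single libraries left out (1004 without *DAT* mutant vehicle replicate 4, 1087 without *DAT* mutant AMPH replicate 3). The WT count of 2490 was 919, 693 and 1633 to 2874 in the same order (1633 without WT vehicle replicate 4). Median centring gave 828 higher and 907 lower in the *DAT* mutant, and quantile normalization 800 and 864 there and 1295 and 1240 in WT. With all 15 libraries the median difference over all genes was -0.13.

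Same-numbered libraries did not deviate together on the median (r -0.10 over 15 pairs, range -0.40 to 0.15). Pairs of different number had a median r of 0.012 (48 pairs, range -0.29 to 0.34). These are deviations from the means of small groups, and whether same-numbered libraries shared a batch was not tested. With a replicate block the difference count was 27, 16 of them among the 19, and the response counts were 1042 in the *DAT* mutant and 2048 in WT.

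Among the uncalled genes named as list ends or as *DAT*, the differences of 4 changed sign, 3 of them near 0 and that of *GstD5* 0.39. Other uncalled genes were not followed one by one, and more of them changed sign. In the TOR and insulin list 24 of 31 were above 0 as reported and 11 with all 15 libraries, where the median over all genes was -0.13. *5-HT1B* had -0.16 with all 15 libraries, -0.15 with *DAT* mutant vehicle replicate 2 added and -0.012 to 0.17 with single libraries left out. *hop* had -0.43 and -0.42 in the same 2 settings, -0.0058 with weights and -0.040 to 0.11 with single libraries left out. *eIF3k* had 0.23 and 0.19 in those settings, 0.021 with WT vehicle replicate 1 added, 0.075 with weights and -0.11 to 0.080 with single libraries left out. *GstD5* had -0.025 with weights and -0.90 with a pseudocount of 0.1. Few reads lay behind the values of *bam* in WT (about 2.9 to 12.7) and of the tRNA gene (0 to 11.0).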
